A study of Mus musculus with 6 samples.

Results

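A set of 8 genes that are known to be switched on in committed and premyelinating oligodendrocytes, Gpr17, Enpp6, Itpr2, Tns3, Bcas1, Neu4, Fyn and Rras2, were examined in mouse primary oligodendrocyte precursor cells (mOPCs) after knockdown of Qk, the gene that encodes the quaking RNA-binding proteins (Qki). The 8 genes were chosen by symbol, as genes known for this stage of the lineage, and all 8 were found among the 23038 genes of the deposited table. The mOPCs were immunopanned from embryos of embryonic day 14.5 and collected 72 h after transfection with either a control siRNA (siNC, 3 libraries) or siRNA against Qk (siQk, 3 libraries). The siQk libraries came from 3 different Qk siRNAs. Which library received which of them, the strain and sex of the embryos and the culture medium are not given in the sources used here. Polyadenylated RNA was sequenced, and levels are given as RPKM as deposited. RPKM is an estimated count divided by the gene's length and the library's depth, which allows levels of different genes to be compared.

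Oligodendrocyte precursors divide, migrate and, when they leave the cell cycle, pass through a committed stage in which they stop expressing precursor genes, extend many processes and begin to make membrane, before the myelin genes reach their full level. Gpr17, a G protein-coupled receptor, is known as a marker of the committed stage that is turned off again before myelin is made, and Enpp6, Itpr2, Tns3 and Bcas1 are known as markers of newly formed or early myelinating oligodendrocytes. Fyn is the Src family kinase through which contact with axons is known to act on process outgrowth and on local translation of Mbp mRNA.

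Totals ranged from 58166490 to 132085937 tags per siNC library and from 82701288 to 141045937 per siQk library, so that counting error was small for each of the 8 genes. The targeted gene checked the labels, as Qk fell from 193 ± 25.9 RPKM (SD, n = 3) in siNC to 54.7 ± 20.4 in siQk (log2 fold change −1.98, SE 0.28, adjusted p = 0.00311 in the quasi-likelihood test of edgeR with Benjamini-Hochberg adjustment over all genes tested). The 3 libraries of a group are labelled biological replicates, without saying which embryos or cultures they came from, so the p-values measure the spread between these libraries. Library siNC replicate 1 was the least deeply sequenced and held 3.11% of its tags in Rn45s, a ribosomal RNA precursor, against 0.169% to 0.389% in the other 5. In whole cultures, fewer cells of a type and less RNA per cell cannot be told apart.

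Of the 8 genes, only Rras2 passed the study's cutoffs (P below 0.01 and FDR below 0.1, edgeR), and it fell. Among all 12505 genes tested, 31.0% were called changed, 13.8% higher and 17.2% lower, so 1 of 8 was not above the background. The log2 fold change of siQk against siNC was negative for 7 of the 8 genes and positive for Gpr17 alone, and their median was −0.50, beside 0.010 for all genes tested. Without siNC replicate 1 the median of the 8 was −0.27. RPKM ranges did not overlap between the groups for Fyn and Rras2, both lower in siQk, which is 2 of 8. Over all genes tested the ranges did not overlap for 58.3%, of which more were higher in siQk (41.9%) than lower (16.4%), and these deposited RPKM carry no TMM scaling. With 3 libraries against 3, the exact two-sided permutation test cannot give less than 0.1.

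**Figure D1:**
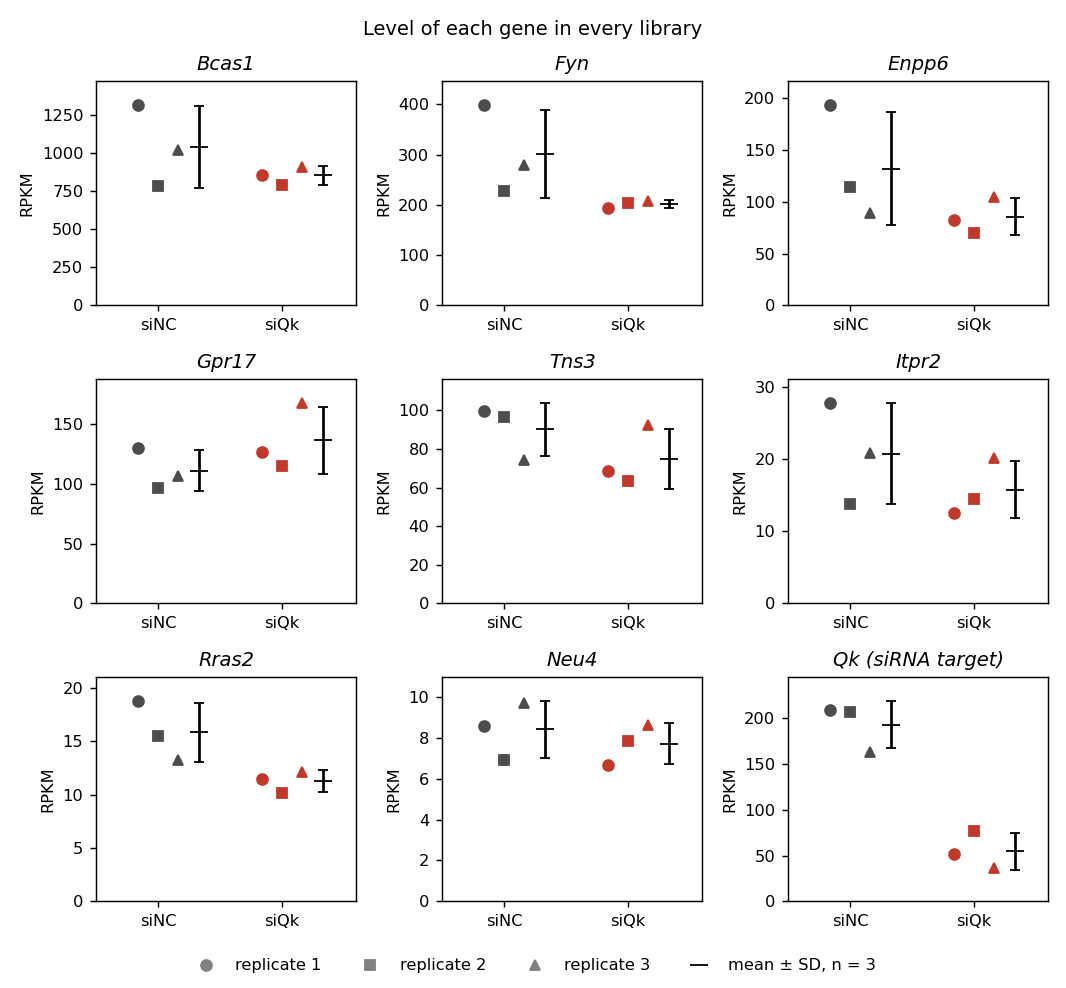
RPKM (linear axes starting at 0) of each of the 8 genes, and of Qk as the siRNA target, in the 3 siNC and 3 siQk libraries. Points are single libraries with their replicate numbers told apart by marker shape, and horizontal lines with bars are the mean ± SD. The siNC and siQk points overlap for 6 of the 8 genes, all but Fyn and Rras2, and Gpr17 is the gene whose mean is higher in siQk, 136 against 111 RPKM.

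In the GENCODE annotation of GRCm38, the assembly also called mm10, Enpp6 lies at chr8:46986887-47096762 (plus strand), Neu4 at chr1:94020451-94028334 (plus) and Fyn at chr10:39368855-39565381 (plus). Itpr2 lies at chr6:146108299-146502223 (minus strand), Tns3 at chr11:8431652-8664535 (minus), Bcas1 at chr2:170346991-170427845 (minus) and Rras2 at chr7:114046782-114117781 (minus). The letters ACTAAC and ACTAAT are the DNA form of the core of the element that Qki proteins are known to bind in RNA. They were searched on the sense strand of the 3′ untranslated region of 1 transcript per gene, since the targeted gene encodes these proteins. A match is a description of the letters and not of binding. Of the 20674 genes with a 3′ untranslated region of at least 50 bases, 32.61% held a match, and 4 of the 8 genes did. Enpp6 held 2, in 3563 bases, and Gpr17, Itpr2 and Neu4 held 1 each, in 3992, 3372 and 2918 bases. Of genes with a 3′ untranslated region within 20% of the same length, 67.6% held a match for Enpp6, 70.69% for Gpr17, 66.34% for Itpr2 and 60.53% for Neu4. Tns3, Bcas1, Fyn and Rras2 held none, in 2842, 1083, 1409 and 1382 bases, where 59.66%, 30.43%, 35.88% and 35.22% of genes of like length held a match. The matches of Enpp6, Itpr2 and Neu4 are shown with the bases around them, the match in capitals, 5′ to 3′ on the strand of the gene.
Enpp6 first match: ctgtcggtgaccACTAACttccctcagaca
Enpp6 second match: aaaacaaaaaaaACTAACaaaacaaaacaa
Itpr2 match: ggaactgactcgACTAATgaatgaggtgac
Neu4 match: gttttgtgtcagACTAACtgggtcttaaag
These lie at chr8:47094000-47094029 and chr8:47094901-47094930 on the plus strand for Enpp6, where the letters begin 813 and 1714 bases after the stop codon. The Itpr2 window is chr6:146108460-146108489 on the minus strand, with the match 3194 bases after the stop codon. The Neu4 window is chr1:94026708-94026737 on the plus strand, with the match 1304 bases after it. In RefSeq promoters of GRCm38.p6, from 250 bases before to 50 after each gene's start, 6 of the 8 genes were found, and Neu4 was the one that held either run of letters on either strand, where 11.58% of 32851 promoters did.

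Gpr17, the receptor of the committed stage, was read at 130, 96.4 and 106 RPKM in siNC replicates 1, 2 and 3 and at 127, 114 and 167 in siQk replicates 1, 2 and 3. The siQk replicate 3 library was the highest of the 6, and the other 2 siQk libraries lay within the siNC range. The means were 111 ± 17.3 and 136 ± 27.7 RPKM (exact permutation p = 0.3), and the log2 fold change of 0.14 (SE 0.19, edgeR adjusted p = 0.595) turned to −0.044 when siQk replicate 3 was left out. In the GENCODE annotation, Gpr17 shares 188 of its 5195 exon bases (3.619%) with Lims2, which lies on the opposite strand. The library kit does not mark strand. Lims2, named here for this overlap, rose (log2 fold change 0.50).

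Since RPKM ratios within a library do not depend on how libraries are scaled, Gpr17 was set against each of the other 7 genes in each library. This comparison was chosen after the values had been seen. The ratio of Gpr17 to Enpp6 was 0.674, 0.848 and 1.20 in siNC and 1.54, 1.65 and 1.596 in siQk. In siNC, Gpr17 was below Enpp6 in replicates 1 and 2 and above it in replicate 3, whereas in siQk it was above Enpp6 in all 3 libraries. The ratio of Gpr17 to Fyn rose likewise from 0.377 ± 0.0494 to 0.673 ± 0.122 without overlap (exact permutation p = 0.1, the smallest possible). Ratios to Itpr2, Tns3, Bcas1 and Rras2 were also higher in every siQk library than in any siNC library, and that to Neu4 overlapped. All 7 ratios share the Gpr17 values, so they are not separate results. Against the other 12504 genes tested, the Gpr17 ratio was higher in siQk without overlap for 17.1%.

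Enpp6, a choline-specific glycerophosphodiester phosphodiesterase, was read at 193, 114 and 88.8 RPKM in siNC and at 82.1, 69.4 and 105 in siQk. Library siNC replicate 1 stood above the other 5, and siQk replicate 3 lay above siNC replicate 3, so the groups overlapped. The mean in siQk was 64.8% of that in siNC (exact permutation p = 0.2). Its log2 fold change was −0.79 (SE 0.33), with an unadjusted P of 0.0462 and an adjusted p of 0.0967 (edgeR). Without siNC replicate 1 it was −0.36. Enpp6 therefore did not pass the cutoffs, and its SD in siNC, 54.5 RPKM, was the widest of the 8 relative to the mean.

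Bcas1, a marker of early myelinating oligodendrocytes, was the most abundant of the 8 genes, at 1317, 783 and 1024 RPKM in siNC and 859, 792 and 911 in siQk. The 3 siQk libraries lay inside the siNC range. Its means were 1041 ± 267 and 854 ± 59.7 RPKM (exact permutation p = 0.4), with a log2 fold change of −0.45 (SE 0.21, edgeR adjusted p = 0.134). Without siNC replicate 2, its lowest siNC library, the fold change was −0.63 and Bcas1 was called lower, and without siNC replicate 1 it was −0.19. Of its 3775 exon bases in the GENCODE annotation, 440 (11.66%) overlap the antisense gene Bcas1os1 and 34 overlap Bcas1os2. The deposited values were counted over 3090 exon bases of Bcas1, so the overlap within these is not known here. Reads of the 2 strands cannot be told apart.

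Tns3 encodes a tensin, a protein of focal adhesions that links integrins to actin. Its RPKM was 99.5, 96.5 and 74.5 in siNC and 68.4, 63.4 and 92.6 in siQk. The groups overlapped because siQk replicate 3 lay above siNC replicate 3. The log2 fold change was −0.43 (SE 0.19, edgeR adjusted p = 0.125, exact permutation p = 0.2 for RPKM).

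Itpr2 encodes an inositol trisphosphate receptor that releases calcium from the endoplasmic reticulum. It was read at 27.8, 13.8 and 20.8 RPKM in siNC and 12.6, 14.5 and 20.2 in siQk. Library siNC replicate 1 was at 2.02 times the level of siNC replicate 2, and the siQk libraries all lay below the 2 highest siNC libraries, on either side of the lowest. The log2 fold change was −0.56 (SE 0.30, edgeR adjusted p = 0.175, exact permutation p = 0.4 for RPKM), and it was −0.24 without siNC replicate 1.

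Neu4, a sialidase that removes sialic acid from glycans, had the lowest level and the fold change nearest to 0 of the 7 genes with a negative one. It was read at 8.60, 6.92 and 9.69 RPKM in siNC and 6.68, 7.83 and 8.64 in siQk. The groups overlapped over most of their range (exact permutation p = 0.5), and the log2 fold change was −0.27 (SE 0.15, edgeR adjusted p = 0.184), and −0.18 without siQk replicate 1.

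Fyn was read at 399, 227 and 280 RPKM in siNC and 194, 204 and 208 in siQk. All siQk libraries lay below all siNC libraries, and the siQk libraries were close together, with a coefficient of variation of 3.62% against 29.1% in siNC. The mean of 302 ± 88.0 RPKM in siNC stood against 202 ± 7.31 in siQk (66.9%, exact permutation p = 0.1). The log2 fold change was −0.74 (SE 0.22) with an unadjusted P of 0.0125 and an adjusted p of 0.0377 (edgeR), which passed the FDR cutoff but not the cutoff on P. Without siNC replicate 1 the fold change was −0.44, and Fyn was called without that library or siNC replicate 2. By DESeq2, where 39.1% of genes were called, Fyn passed both (log2 −0.75, adjusted p = 0.00278), as it did by the likelihood ratio test of edgeR (34.4% of genes called, adjusted p = 0.0051).

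Rras2 encodes a small GTPase of the Ras family that is related to R-Ras. It was read at 18.8, 15.5 and 13.3 RPKM in siNC and at 11.5, 10.1 and 12.1 in siQk, with no overlap. The mean fell from 15.9 ± 2.77 to 11.2 ± 1.03 RPKM (70.9% of siNC, exact permutation p = 0.1). The log2 fold change was −0.65 (SE 0.17), with an unadjusted P of 0.0062 and an adjusted p of 0.0237 (edgeR). When 1 library was left out, the fold change ranged from −0.79 to −0.47, and P stayed below 0.01 only where siNC replicate 3 was the library left out.

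**Figure D2:**
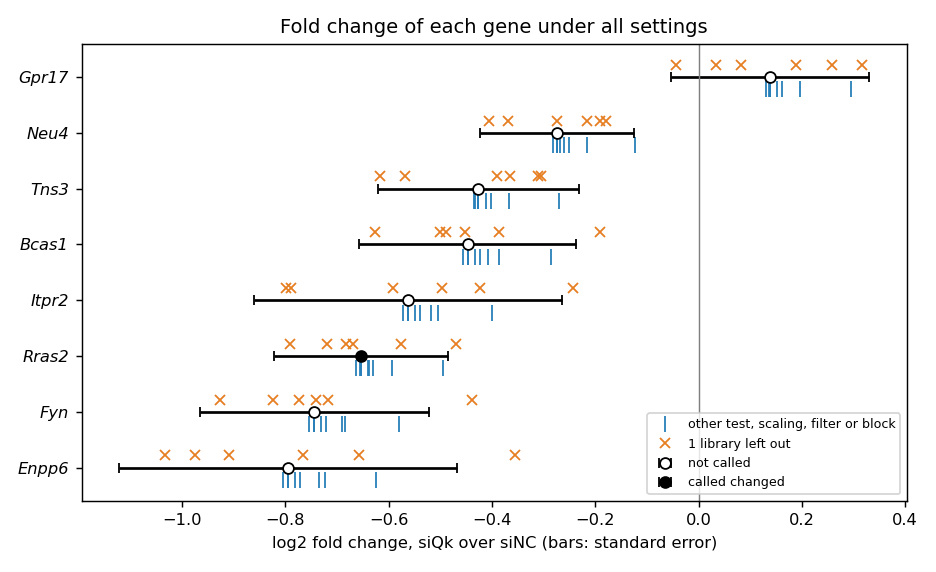
Log2 fold change (siQk against siNC, edgeR) of each of the 8 genes with bars of ± 1 SE, with crosses for the fold changes when each library was left out in turn and vertical ticks for those under the other tests, scalings, filters and the replicate block. A filled circle marks a called gene. All marks of 7 genes stay below 0, those of Gpr17 fall on both sides of 0, from −0.044 to 0.32, and Rras2 is the gene that passed the cutoffs.

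The order of levels in siNC was Bcas1, Fyn, Enpp6, Gpr17, Tns3, Itpr2, Rras2 and Neu4. RPKM ranges of neighbours overlapped for Enpp6 and Gpr17, for Gpr17 and Tns3, and for Itpr2 and Rras2, so their order was not separated beyond the spread between libraries. In siQk the order was the same except that Gpr17 stood above Enpp6, and the ranges overlapped only for Enpp6 and Tns3.

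The median coefficient of variation of RPKM between libraries of 1 group was 21.6% over the 8 genes in siNC and 16.5% in siQk, against 10.8% and 6.45% over all genes tested, although in siQk Fyn (3.62%) lay below the latter and Bcas1 (6.98%) close to it. On the scale of TMM-normalised log2 CPM (counts scaled to library depth), siQk replicate 3 was the highest siQk library for 8 of 8 genes, where 34.3% of all genes tested had it highest. Its median deviation from the group mean was 0.26 over the 8 genes. Library siNC replicate 1 was the highest siNC library for 7 of 8 (all but Neu4), where 32.0% of all genes had it highest, and its median deviation was 0.39. The remaining siNC libraries were at −0.25 and −0.12 and the remaining siQk libraries at −0.068 and −0.14.

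Genes of other stages were read in the same libraries. In siQk replicate 3, all 15 myelin genes tested and 15 of 17 other genes of the committed and newly formed stage were at their siQk maximum, against 2 of 14 precursor genes. Of 8 astrocyte markers tested, 6 were at their siQk maximum in that library and 5 at their siNC maximum in siNC replicate 1. In siNC, replicate 1 held the maximum of 14 of those 17 genes, of 8 of the 15 myelin genes and of 6 of the 14 precursor genes, and siNC replicate 3 held that of none of the myelin genes. Library siQk replicate 3 also had the lowest Qk level of the 6, 36.2 RPKM, and siNC replicate 1 the highest share of Rn45s. The part of Qk level, Rn45s, astrocyte markers or stage composition in these deviations was not tested.

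**Figure D3:**
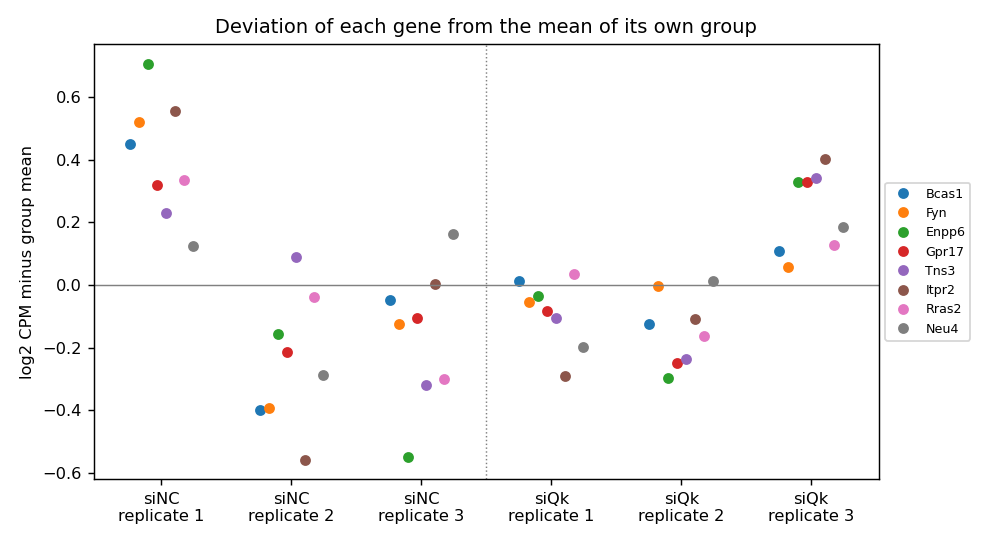
Deviation of each of the 8 genes from its own group mean in each library (log2 CPM, TMM-normalised), 1 point per gene. All 8 points are above 0 in siNC replicate 1 and in siQk replicate 3, and the medians there are 0.39 and 0.26.

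Among the genes of the lineage, the median fold change of the 8 lay between those of the precursor and the myelin genes. Of 15 myelin and mature oligodendrocyte genes tested, 10 were called lower and none higher (median log2 fold change −1.98), among them Mbp, which encodes myelin basic protein (−2.21, SE 0.62). Of 14 precursor genes, 3 were called higher and 2 lower (median 0.12). The 3 higher were the NG2 proteoglycan gene Cspg4 (0.93) and the lineage transcription factors Olig2 (0.69) and Olig1 (0.43), and the 2 lower were Ednrb (−1.78), an endothelin receptor gene, and Lhfpl3 (−1.07). Of 17 other genes of the committed and newly formed stage tested, 4 were called higher and 5 lower (median −0.29, from −0.46 without siQk replicate 3 to −0.14 without siNC replicate 1). Sirt2, a deacetylase gene and the most abundant of them, fell from 2081 ± 564 to 650.2 ± 109 RPKM (log2 −1.84, SE 0.25). Bfsp2, a filament protein gene, fell by 1.09 on the log2 scale. The 4 of the 17 called higher were Nkx2-2 (0.90), Bmp4 (0.69), Lims2 (0.50) and Mycl1 (0.33). Gm98, the older symbol of the myelin regulatory factor gene Myrf, was read at 79.5 ± 17.6 and 62.0 ± 17.0 RPKM and was not called (log2 −0.52, edgeR adjusted p = 0.148). The counts of calls moved with single libraries, to 4 of the 15 myelin genes without siQk replicate 1 or 2, to 5 of the 17 without siQk replicate 1 and to 8 of the 14 without siNC replicate 3. The summed RPKM of the 8 genes overlapped between groups (1353 to 2193 in siNC, 1275 to 1525 in siQk), whereas that of the myelin genes did not (3535 to 6146 against 1517 to 2270).

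**Figure D4:**
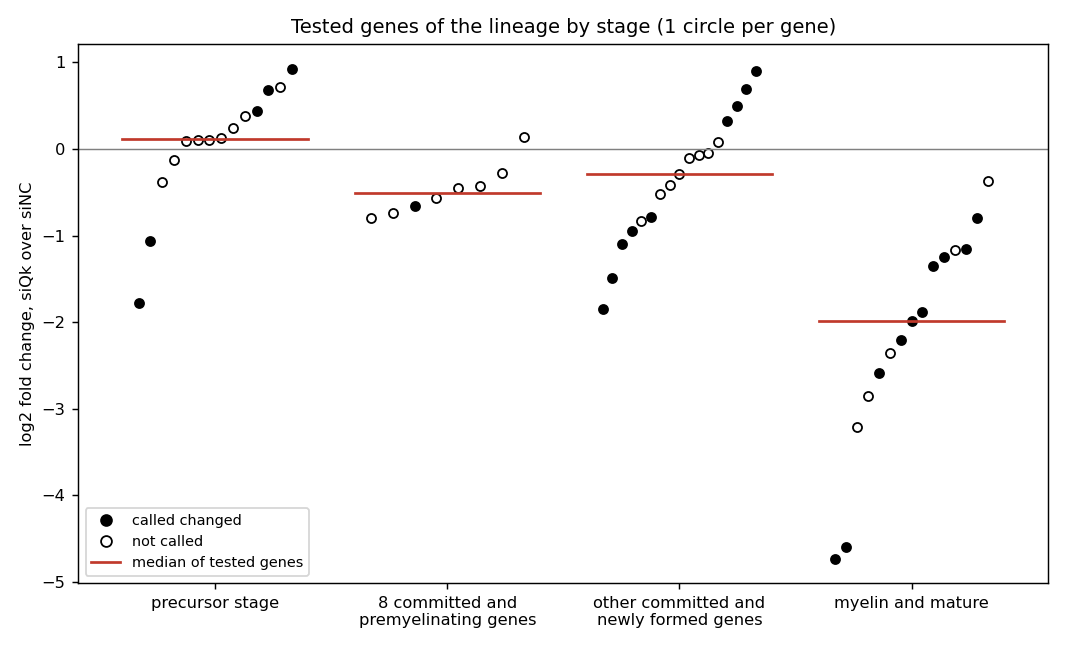
Log2 fold change (siQk against siNC, edgeR) of every tested gene of 4 lists, precursor genes, the 8 genes, other genes of the committed and newly formed stage, and myelin genes, 1 point per gene, with filled points for genes that passed the cutoffs and a bar at each list's median. The medians are 0.12, −0.50, −0.29 and −1.98.

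Markers of other cell types were read beside these. Astrocyte markers were called lower in 4 of 8 tested, Gfap, Aldh1l1, Slc1a2 and Slc1a3, and none was called higher. The log2 fold change was negative for 5 of the 8 and positive for 3, and S100b was the most abundant of the list. Summed RPKM was 293 to 413 in siNC and 288 to 311 in siQk. Among neuron markers 2 of 10 tested were called, both higher, Snap25 (0.751 to 5.18 RPKM) and Nefl (1.88 to 6.36), and 6 were called without siNC replicate 2 and with library size only. Of these 10 genes, 7 had a positive fold change and 3 a negative one, and 0.71 was the middle value on the log2 scale. Added up over the neuron list, RPKM did not rise, at 154 to 232 in siNC and 143 to 185 in siQk, with overlap. Tubb3, its most abundant gene, was at −0.57 and was not called. Of 10 microglia markers 8 were under 1 RPKM in every library, with C1qa and C1qb at 0. Of the 2 tested, P2ry12 was called lower, and the summed RPKM of the list was 2.75 to 5.82 in siNC and 1.39 to 2.09 in siQk. Of 10 fibroblast and vascular markers 9 were under 1 RPKM. The part of these cells in the values of the 8 genes was not tested.

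The relatives of Fyn, Tns3, Itpr2, Neu4, Enpp6 and Rras2 were read to see how much of a family each level stood for. Fyn held 90.0% ± 3.32 of the summed RPKM of the 9 Src family kinases in siNC and 87.2% ± 0.865 in siQk, and the family sum fell below the siNC range (333 ± 84.5 to 232 ± 6.34, exact permutation p = 0.1). Src was the second kinase, at 17.6 ± 2.86 and 22.6 ± 1.28 RPKM, and was not called (log2 0.21). Yes1 fell (12.9 ± 1.22 to 6.15 ± 0.0858 RPKM, log2 −1.22, SE 0.077). When any 1 siNC library was left out, 2 of the 4 kinases tested were called. Lyn was not called (−0.75), and the other family members, Lck, Fgr, Blk and Frk among them, were too low to be tested.

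Tns3 was the main tensin, at 91.1% ± 0.920 of the summed RPKM of the 4 tensins in siNC and 86.8% ± 0.580 in siQk, without overlap (exact permutation p = 0.1). The tensin 2 gene, listed as Tenc1, rose from 4.33 ± 0.919 to 7.17 ± 0.686 RPKM (log2 0.58, SE 0.16), and Tns1 was not called. Itpr2 held 95.1% ± 2.92 and 89.5% ± 2.79 of the summed RPKM of the 3 inositol trisphosphate receptors, with overlap. Itpr3 rose (log2 1.01, SE 0.19) at a low level, 0.116 ± 0.0293 to 0.261 ± 0.0113 RPKM, and Itpr1 was not called (0.71).

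Neu4 was second to Neu1 among the sialidases, with 35.6% ± 3.92 and 33.2% ± 1.99 of their summed RPKM, and neither Neu1 (log2 −0.097) nor Neu3 (−0.74) was called. Enpp6 was second to Enpp2, the gene of the lysophospholipase autotaxin, with 32.8% ± 12.01 and 30.8% ± 5.30 of the family sum. Enpp2 fell (247 ± 48.9 to 175 ± 9.74 RPKM, log2 −0.64, SE 0.13), as did Enpp4 (−0.74) and Enpp5 (−0.32), so that 3 of the 4 Enpp genes tested were called and Enpp6 was the one that was not. Rras2 held 41.8% ± 6.32 and 36.5% ± 3.62 of the sum of Rras, Rras2 and Mras, and neither Rras (−0.44) nor Mras (−0.18) was called. Like that of the Src kinases, the Enpp family sum fell (399 ± 46.7 to 276 ± 11.4 RPKM, exact permutation p = 0.1). The sum of Rras, Rras2 and Mras fell as well (37.8 ± 2.03 to 30.8 ± 0.779 RPKM, exact permutation p = 0.1).

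Genes that act with 7 of the 8, all but Bcas1, were counted against the 31.0% called among all genes tested. The lists for Rras2, Enpp6, Itpr2, Tns3 and Neu4 include the gene itself. For Gpr17, 16 genes of G protein signalling and related purine and leukotriene receptors were tested, 4 were called higher and 4 lower (median 0.083), and the 2 leukotriene receptor genes Cysltr1 and Cysltr2 were too low to be tested. Together 5 were called without siQk replicate 1 or 3 and 4 without siQk replicate 2. The inhibitory G protein gene Gnai2 fell slightly (log2 −0.34, SE 0.076), the arrestin gene Arrb1 fell (−0.58) and the cyclic AMP-activated exchange factor gene Rapgef3 rose (0.49). The purine receptor gene P2ry12, which is also a microglia marker, fell (−3.16) from levels of no more than 3.20 RPKM. Id2, a negative regulator of oligodendrocyte differentiation, was not called (0.081).

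For Fyn, 23 partners, regulators and targets were tested, of which 1 was called higher and 9 lower (median −0.22). Rhoa, the small GTPase gene whose product Fyn signalling is known to inhibit, fell from 215 ± 8.57 to 117 ± 4.68 RPKM (log2 −1.04, SE 0.081). Mag, the gene of an axon-facing adhesion molecule that is also in the myelin list, fell (−2.58), as did the exchange factor gene Vav3 (−1.14), whereas the adhesion molecule gene L1cam rose (1.15) at 0.663 to 1.63 RPKM. Hnrnpa2b1, whose product carries Mbp mRNA, was not called (0.19).

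For Rras2, 20 genes of Ras family GTPases and their regulators were tested, of which 11 were called lower, Rras2 itself among them, and 1 higher (median −0.46). Rap1a (−1.36, SE 0.17), Nras (−1.05, SE 0.19), Rap1b (−0.48) and the exchange factor gene Rasgrp3 (−3.29) fell, and Rasgrp1 rose (1.15), both Rasgrp genes at no more than 2.01 RPKM in any library. For Enpp6, 18 Enpp and choline lipid genes were tested, 9 of them called lower and 1 higher (median −0.39). Of these 10 calls the total was 6 without siNC replicate 1, 4 without siQk replicate 1 and 5 without siQk replicate 2 or 3, and 6 with library size only. The choline transporter gene Slc44a1 fell from 198 ± 52.2 to 30.1 ± 3.10 RPKM (log2 −2.89, SE 0.23), the choline phosphotransferase gene Chpt1 fell (−1.18) and the sphingomyelinase gene Smpd3 rose (0.85).

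For Itpr2, 19 inositol trisphosphate and calcium store genes were tested, 2 called higher and 3 lower, with a median of −0.091 that was 0.053 with library size only as the scaling and 0.083 without siNC replicate 3. The phospholipase C gene Plcb4 rose (1.69), and Plcb3 (−0.93), the calcium sensor gene Stim1 (−0.45) and the calcium pump gene Atp2a2 (−0.44) fell. For Tns3, 17 tensin and integrin adhesion genes were tested, 1 called higher (Tenc1) and 4 lower (median −0.29, and −0.096 without siNC replicate 1), among them the integrin genes Itgb1 (−0.62) and Itgav (−0.48) and the kindlin gene Fermt2 (−0.58). The total of 5 was 3 without siQk replicate 1 or 3 and with library size only. For Neu4, 17 sialidase and sialic acid genes were tested, 5 called higher and 3 lower, with a median of −0.097 that was 0.056 with library size only. Ctsa, whose product protects the lysosomal sialidase, fell (−0.88), as did the sialyltransferase gene St3gal4 (−0.85) and the polysialic acid carrier gene Ncam1 (−0.68), and the polysialyltransferase gene St8sia4 rose (1.08).

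The genes whose pattern over the 6 libraries was most like that of each gene were looked up among the 10038 genes with an average log2 CPM over 3. Libraries of both groups enter these correlations as points that share the siRNA contrast and each library's depth, and the values are given as a description. Each r named first is the highest among the genes searched over 6 libraries, so the search alone favours high values. Tns3 was most like Gm98, the Myrf gene (Pearson r = 0.997, 6 libraries), Enpp6 most like Alad (0.999), which encodes an enzyme of heme synthesis, and then Map4k4 and Plxnb3. Fyn was most like Rac3 (0.998), the gene of a small GTPase, and Bcas1 most like Rab4a (0.999), the gene of an endosomal GTPase. Rras2 was most like D15Ertd621e (0.997), and Itpr2 most like Dctn3 (0.990). For Gpr17 the closest was Mmadhc, at 0.980. None of the genes named in this way passed the cutoffs.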

How the data were processed

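Total RNA of siNC and siQk mOPCs was made into poly(A) libraries with a kit that does not mark strand and read as 75-nt paired ends. Per the study's methods, the authors aligned reads with OLego to mm10 and counted them per gene with Quantas, with versions not given in the sources used here. The deposited table holds 1 estimated tag count and 1 RPKM value per gene and library. The RPKM values were used as the authors deposited them, and the estimated counts, which hold decimals for 23.1% to 26.2% of genes, were rounded to whole numbers here. The sources used here do not define a tag.

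Counts of all 6 libraries were fitted with the quasi-likelihood test of edgeR 4.0.16 in R 4.3.3 (TMM, no covariate, genes with average log2 CPM over 0, Benjamini-Hochberg adjustment over all 12505 genes tested). Calls needed both P below 0.01 and FDR below 0.1, which are the study's cutoffs. DESeq2 1.42.0, edgeR's likelihood ratio test, other scalings, filters and cutoffs, a replicate block and leaving out each library were alternatives. RPKM means were compared by exact two-sided permutation over libraries, which cannot give less than 0.1. The script was tested on simulated counts. Groups were taken from the labels. Total tags per library were 58166490 or more.

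The 8 genes and the 15 other gene lists, of which all 254 symbols were found, were chosen with earlier results of these data known. Besides the 8 genes and Qk, the text names from each list up to 4 called genes of largest fold change and 2 of highest level, the relatives of each gene, and the 3 genes most like each. Lims2, Nkx2-2, Bmp4, Mycl1, the overlapping antisense genes, Rn45s and genes at 0 were named outside this rule, with their values seen. A few genes that this rule names are not reported here.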

Additional observations from a re-analysis of the deposited data

How the results depend on the processing

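The direction held for 7 of the 8 genes and for Qk under all 15 alternatives. Those that changed only the cutoffs kept the fold changes of the main fit, so direction could not move there. Gpr17 had −0.044 without siQk replicate 3 (leaving out single libraries gave −0.044 to 0.32), and the cause was not tested. Qk was called in all 15 (−2.29 to −1.76). The number of the 8 genes called was 3 by DESeq2, 2 by the likelihood ratio test of edgeR and 2 among genes with any count. It was 2 at FDR below 0.05 alone and 0 where a log2 change of 1 or more in size was also required. Leaving out single libraries gave 0 to 2. Calls over all genes moved as well, from 3879 (31.0%) in the main fit to 4894 (39.1%) by DESeq2 and 4301 (34.4%) by the likelihood ratio test. They were 4500 among genes with any count, 4616 at FDR below 0.05 alone and 946 with the log2 change also required.

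Fyn was called by DESeq2 (−0.75), by the likelihood ratio test (−0.74), among genes with any count (−0.72), at FDR below 0.05 (−0.74) and without siNC replicate 1 or 2 (without single libraries −0.93 to −0.44, adjusted p from 0.00278 to 0.116 over its 15 alternatives). Enpp6 was called by DESeq2 alone (−0.80), and without single libraries was at −1.03 to −0.36. Bcas1 was called without siNC replicate 2 (−0.63 to −0.19). Rras2 was not called where a log2 change of 1 or more in size was required (−0.65), and without single libraries (−0.79 to −0.47) it was called only without siNC replicate 3.

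With library size only as the scaling, the median of all genes moved to 0.16, and 2989 genes were higher and 1365 lower in place of 1730 and 2149. With FDR below 0.05 and a log2 change of 1 or more in size required, 946 genes passed, 326 higher and 620 lower. Leaving out 1 library gave 2478 to 3704 called genes, 1008 to 1610 higher and 1470 to 2094 lower. Medians and counts of calls of the gene lists were read under the other scalings, the replicate block and with each library left out. They were not read under the other tests, filters or cutoffs. Of these values, 31 moved beyond the limit set for them (1.5 times for a count) and 239 did not.

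The labels do not say whether same-numbered libraries were paired, and the main fit used no pairing. Correlations of deviations of same-numbered libraries were −0.053, −0.15 and −0.34, which cannot show whether such libraries shared a culture. With a replicate block, 2796 genes were called, 2701 of them shared with the fit without it, and 0 of the 8, Rras2 being at −0.64 (adjusted p = 0.0492). Fyn at RPKM divided by the TMM factor had a siQk mean of 191.6. Each of the 8 genes had 1803 or more tags in every library. Which library received which siRNA is not known here.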
